A study of Mus musculus with 4 samples.

Results

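The Ikaros family is described here through 4 of its genes, Ikzf1 (Ikaros), Ikzf2 (Helios), Ikzf3 (Aiolos) and Ikzf4 (Eos), which are 4 of the 28692 genes counted in each of 4 single-cell libraries from mouse B16-F10 melanoma. The genes were taken by symbol, and each symbol has 1 row in the count tables. They were picked because Ikzf2 was known to differ strongly between the libraries of transferred T cells, so that difference is a description and carries no test. The sorted cells came from C57BL/6 mice bearing B16-F10 tumours, which grow from a transplantable melanoma line of that strain. On day 3 after implantation the mice received Pmel-1 CD8 T cells, which carry a transgenic receptor for the melanocyte antigen gp100. The Pmel-1 cells had been transduced with IRF4 and GFP (IRF4 arm) or with GFP alone (control arm), so that both arms hold GFP-transduced cells. The 4 libraries were made at day 14. They are transferred Pmel-1 cells of the IRF4 arm and of the control arm, and endogenous CD45+ tumour-infiltrating cells of the IRF4 arm and of the control arm. The sources used here give neither the age and number of the mice nor any pooling of tumours nor the promoter of the vectors. The series title names the question as the part of IRF4 in antitumour immunity of CD8 T cells. Each group is 1 library, so no difference below has a replicate check, and every interval is at 95% and covers counting error only.

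Ikaros proteins are zinc finger transcription factors of lymphocytes. Fingers near the start of the protein bind DNA, and a pair at the far end joins family members into dimers. The proteins bring the nucleosome remodelling and deacetylase complex NuRD to their target genes. Ikaros is needed for lymphocyte development, Aiolos is best known from mature B cells, and Eos works with FOXP3 in regulatory T cells. Helios marks most regulatory T cells, innate-like T cells and a CD8 population with Ly49 receptors, and it is also seen in T cells under chronic stimulation. In human myeloma, drugs that direct the cereblon ligase to IKZF1 and IKZF3 lower IRF4, a transcription factor induced by T cell and B cell receptor signals.

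The genes lie on 3 mouse chromosomes (mm10, GENCODE vM21). Ikzf1 (ENSMUSG00000018654) is at chr11:11685003-11772926 on the plus strand. Ikzf2 (ENSMUSG00000025997) is at chr1:69531214-69687245, Ikzf3 (ENSMUSG00000018168) at chr11:98464902-98546031 and Ikzf4 (ENSMUSG00000002578) at chr10:128630843-128645991, all on the minus strand. Each overlaps 1 to 3 predicted genes in the annotation, and 2 of these share the strand of Ikzf2 (Gm28112 and Gm29112) and 1 that of Ikzf3 (Gm25106), so UMIs could be split between them. The longest coding transcript has 535 annotated codons in Ikzf1, 532 in Ikzf2, 507 in Ikzf3 and 686 in Ikzf4. A C2H2 zinc finger pattern occurs 5 times in each. The pattern limits the spacing of the last zinc-binding residues, so a finger with a wider spacing would be missed and was not compared. The coding sequence of the second of these 5 fingers is shown, because among them it is the most alike in encoded residues. The codons of the zinc-binding cysteines and histidines are in capitals.
Ikzf1: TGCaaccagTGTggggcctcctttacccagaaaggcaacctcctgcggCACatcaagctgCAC
Ikzf2: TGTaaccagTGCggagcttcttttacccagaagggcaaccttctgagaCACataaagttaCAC
Ikzf3: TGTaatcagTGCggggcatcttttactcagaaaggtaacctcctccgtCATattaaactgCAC
Ikzf4: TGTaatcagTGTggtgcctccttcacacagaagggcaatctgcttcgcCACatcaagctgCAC
Over its 21 codons no residue differs among the 4 genes, while 18 codons differ only in synonymous bases and 3 are identical. Base identity ran from 76.2% for 3 pairs (Ikzf2 with Ikzf3, Ikzf2 with Ikzf4 and Ikzf3 with Ikzf4) to 84.1% for Ikzf1 with Ikzf4. In each of the other 4 fingers that the pattern found, 4 or 5 codons differ in the residue they encode. Each stretch lies within 1 coding exon, at chr11:11754024-11754086 in Ikzf1, chr1:69570581-69570643 in Ikzf2, chr11:98488940-98489002 in Ikzf3 and chr10:128640229-128640291 in Ikzf4.

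There were 715 barcodes of transferred cells in the IRF4 arm against 3640 in the control arm, and 6981 against 6375 of endogenous cells. Total counts of unique molecular identifiers (UMIs, each standing for 1 captured RNA molecule) were 16664323 and 94686409 in the transferred libraries and 81843816 and 84211837 in the endogenous ones. Cells were sorted into classes by the UMIs of marker genes, called gates here, without use of the family. The CD8 T gate held 461 transferred cells of the IRF4 arm and 1927 of the control arm, with median depths of 15789 and 18723 UMIs. It held 1895 endogenous cells of the IRF4 arm and 640 of the control arm, with median depths of 10795 and 8858 UMIs. A gate that asks for no UMI of a gene, such as Cd4, can hold cells in which that gene was missed. Trbv14, the beta segment of the Pmel-1 receptor, was seen in 92.2% and 89.2% of gated transferred cells and in 2.43% and 0.625% of gated endogenous cells. Irf4 was at 27.5 CPM (counts per 1e6 UMIs) in transferred cells of the IRF4 arm and 25.8 CPM in those of the control arm. The counts come from 3' ends, and the sources used here do not say where the vector transcript ends, so Irf4 is no check of the labels. Foxp3 had 0 UMIs in CD8-gated cells because the gate asked for none, and all kept transferred cells together held 0 Foxp3 UMIs in the IRF4 arm against 15 in the control arm. Foreign RNA of both myeloid and erythroid kind differed between arms in CD8-gated cells. Of 8 myeloid markers, 8 had UMIs in every library, at a summed 36.8 CPM in transferred cells of the IRF4 arm and 56.6 CPM in those of the control arm, and at 64.8 and 118 CPM in endogenous cells. The 3 erythroid markers summed to 0.241 CPM (Alas2 at 0) in transferred cells of the IRF4 arm and 68.9 CPM in those of the control arm, and to 0.335 (Alas2 at 0) and 801 CPM in endogenous cells. The part of this RNA in the results was tested only where a value without such cells is given. At most 13 kept barcodes were shared between any pair of libraries.

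Ikzf2 separated the transferred libraries. It was at 45.3 CPM (41.7 to 49.2, 565 UMIs) in CD8-gated cells of the IRF4 arm and at 262 CPM (258 to 267, 14188 UMIs) in those of the control arm. The intervals lie far apart, and the ratio was 0.173 (0.159 to 0.188). The other genes stayed close together or were low. Ikzf1 was at 166 CPM in the IRF4 arm against 172 CPM in the control arm, a ratio of 0.962 (0.917 to 1.009) whose interval holds 1. Ikzf3 was at 60.6 CPM and 42.1 CPM, a ratio of 1.44 (1.32 to 1.56), which lies above 1 but under the 1.5-fold size asked for a call. Ikzf4 had only 54 and 493 UMIs, at 4.33 and 9.11 CPM, a ratio of 0.476 (0.352 to 0.631). A gene was counted as measured where its larger level was at least 10 CPM, which 3 of the 4 genes reached and Ikzf4 did not, and called at a 1.5-fold difference on the log2 scale with 1 CPM added. By that rule 1 of the 3 was lower (Ikzf2) and 0 were higher, where 2.76% of 7427 measured genes were called lower, 3.69% higher and 6.45% in either direction. Because Ikzf2 was chosen for this contrast, nothing is read from that count. Ikzf5 (Pegasus), the remaining family gene, was at 14.5 CPM in the IRF4 arm against 15.6 CPM in the control arm, a ratio of 0.933 (0.79 to 1.096). T cells set apart for their myeloid RNA, 73 in the IRF4 arm against 408 in the control arm, had 30.6 and 206 CPM of Ikzf2. Without cells that held a haemoglobin UMI the log2 ratio of Ikzf2 was -2.49, beside -2.51 with them.

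The same genes were set side by side in endogenous CD8-gated cells, which had not been transduced. Ikzf2 was at 152 CPM in the IRF4 arm against 183 CPM in the control arm, a ratio of 0.828 (0.784 to 0.875). Both levels lie between the levels of the transferred libraries. Ikzf1 was at 198 and 178 CPM (ratio 1.109, 1.051 to 1.171) and Ikzf3 at 112 and 108 CPM (ratio 1.04, 0.967 to 1.114). Ikzf4 was again the lower in the IRF4 arm, at 4.08 CPM against 9.35 CPM in the control arm, with 134 and 87 UMIs and a ratio of 0.436 (0.331 to 0.578). Of the 3 measured genes 0 were called in either direction, where 2.93% of 7639 genes were called higher, 4.91% lower and 7.84% in all. Without cells that had a cycle gene UMI, the endogenous Ikzf2 ratio turned its direction, to a log2 ratio of 0.53 from 216 CPM in the IRF4 arm against 149 CPM in the control arm. In the same cells the Ikzf4 log2 ratio was -0.13 in endogenous cells, and -0.21 in transferred cells on 8 and 56 UMIs. Of the cycle genes, at least 2 had UMIs in 814 of 1895 endogenous CD8-gated cells in the IRF4 arm against 162 of 640 in the control arm. These counts of cells were not corrected for depth. In those cycling cells Ikzf2 was at 136 CPM in the IRF4 arm against 211 CPM in the control arm (ratio 0.644, 0.601 to 0.692). In cells with 1 cycle gene the Ikzf2 ratio was 0.967 (0.818 to 1.146).

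Within an arm, transferred cells stood on opposite sides of the endogenous cells for Ikzf2. In the IRF4 arm Ikzf2 was at 45.3 CPM in transferred and 152 CPM in endogenous CD8-gated cells (ratio 0.299, 0.273 to 0.326). In the control arm it was at 262 CPM in transferred and 183 CPM in endogenous cells (ratio 1.43, 1.36 to 1.504). Ikzf3 was lower in transferred cells of both arms, at 60.6 CPM against 112 CPM in endogenous cells of the IRF4 arm (ratio 0.542) and at 42.1 CPM against 108 CPM in the control arm (ratio 0.391). Ikzf1 had ratios of 0.839 in the IRF4 arm against 0.968 in the control arm, and Ikzf4 ratios of 1.06 and 0.974 with intervals that hold 1. Of 3 measured genes, 2 were called lower in transferred cells of the IRF4 arm (Ikzf2 and Ikzf3), where 10.3% of genes were called lower, 5.77% higher and 16% in all. In the control arm 1 was called lower (Ikzf3), where 12.8% were called lower, 6.45% higher and 19.2% in all. Transferred and endogenous cells were sorted differently and sequenced as separate libraries, so cell origin and library cannot be told apart.

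**Figure D1:**
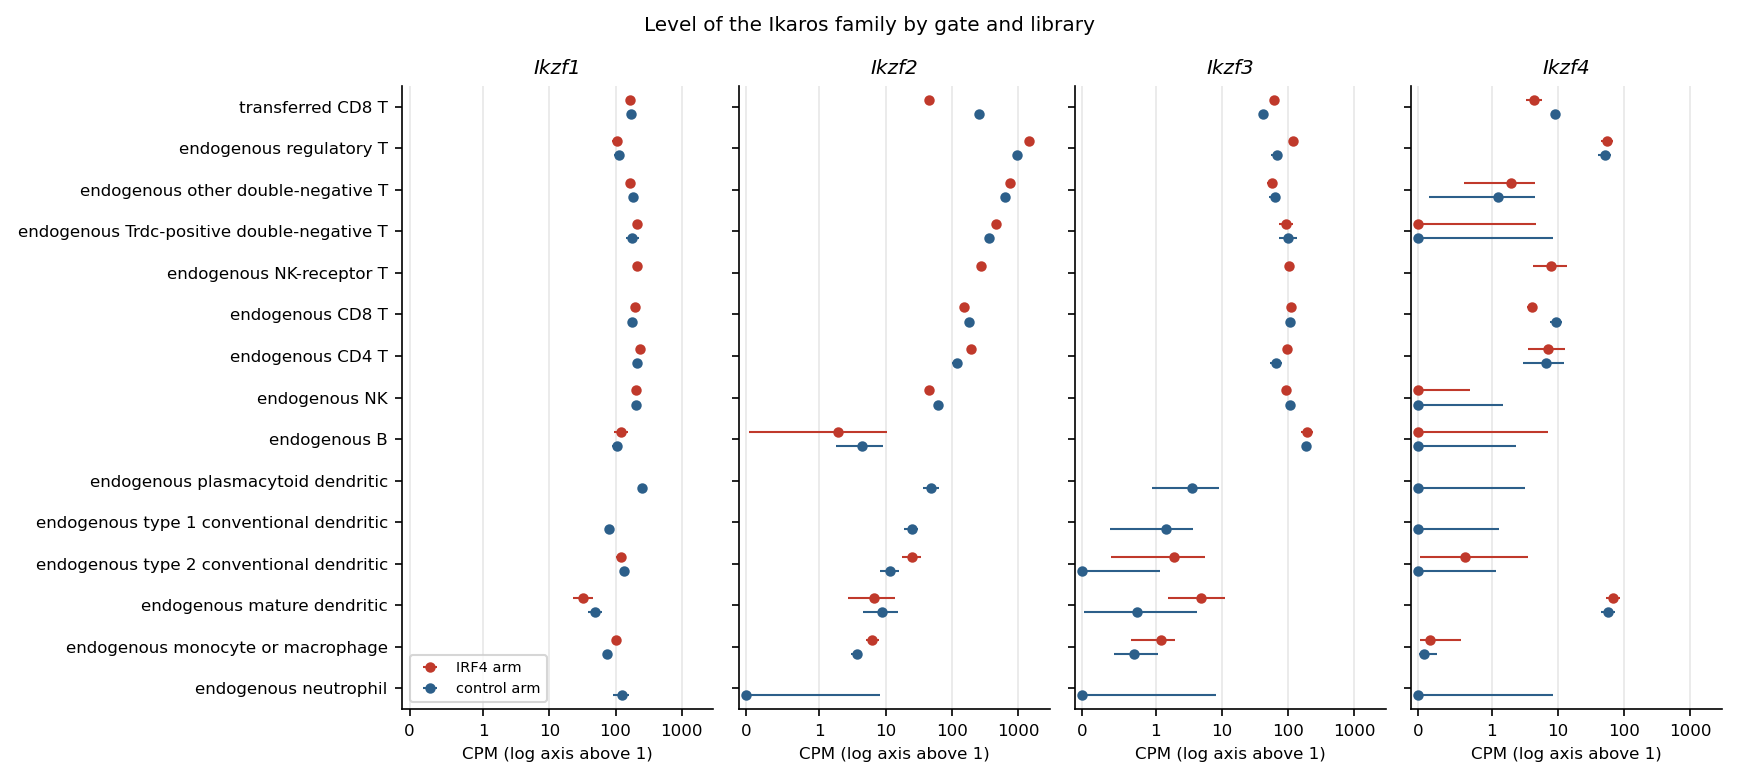
Level of each gene (CPM, log axis above 1) in gates with at least 50 cells, IRF4 arm in red and control arm in blue. T cells with myeloid RNA and ungated cells are not drawn. Points are 1 library each and bars are exact Poisson intervals at 95%. Ikzf2 in transferred CD8 T cells reads 45.3 CPM in the IRF4 arm against 262 CPM in the control arm, and its highest levels are in endogenous regulatory T cells, at 1475 and 968 CPM.

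Across the endogenous gates each gene had its own order. Ikzf2 was highest in regulatory T-gated cells, with 1475 CPM (1415 to 1537, 132 cells) in the IRF4 arm against 968 CPM (919 to 1019, 86 cells) in the control arm. The marker of that gate, Foxp3, was at 338 and 225 CPM in it. Some dendritic transcripts differed between arms in these cells. Cd209a was at 1.29 CPM in the IRF4 arm against 224 CPM in the control arm. Ccl22 was at 0.647 and 87.1 CPM and Il4i1 at 2.59 and 90.4 CPM. Xcr1, also a dendritic marker, was alike, at 21.4 and 20.6 CPM. The part of these transcripts in the Ikzf2 levels was not tested. Next came T cells with neither a Cd4 nor a Cd8 UMI and no Trdc UMI, at 768 and 640 CPM. These cells had Klra6 at 92.6 and 77.6 CPM and Klra7 at 380 and 306 CPM, both genes of Ly49 receptors. They also held the NK markers Ncr1, at 59.3 and 32.9 CPM, and Klrb1c, at 125 and 111 CPM. T cells without Cd4 and Cd8 but with a UMI of Trdc, the constant segment of the delta receptor chain, had 467 and 368 CPM. In both arms these 3 gates kept that order, with no overlap of neighbouring intervals. In the IRF4 arm T cells with NK receptors came next, at 277 CPM in 107 cells, and the control arm had under 50 of them. The CD8 and CD4 gates followed, with CD4 T cells above CD8 T cells in the IRF4 arm (198 and 152 CPM) but below them in the control arm (118 and 183 CPM). NK-gated cells had 45.2 and 62.8 CPM of Ikzf2, with Klra7 at 390 and 417 CPM and Klra6 at 8.90 and 11.8 CPM. Plasmacytoid dendritic cells of the control arm, the only arm with 50 of them, had 48.8 CPM of Ikzf2. In B cells (1.91 and 4.44 CPM), monocytes or macrophages (6.28 and 3.68 CPM) and neutrophils of the control arm (0 UMIs, where the 3 counts that a count of 0 allows would be 6.73 CPM) Ikzf2 was near or at 0. The Ikzf2 level of transferred cells in the IRF4 arm, 45.3 CPM, lay beside that of NK-gated cells of the same arm and below every endogenous T cell gate drawn.

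Ikzf1 was the broadest of the 4. Its levels in the IRF4 arm ran from 32.6 CPM in mature dendritic cells to 232 CPM in CD4 T cells, and in the control arm from 49.0 CPM in mature dendritic cells to 255 CPM in plasmacytoid dendritic cells. In the IRF4 arm the intervals of CD4 T, NK-receptor T, Trdc-positive T and NK cells each overlapped the next in order, from 232 to 201 CPM, and CD8 T cells were at 198 CPM. Regulatory T cells, highest for Ikzf2, were low among T cells for Ikzf1, at 105 and 112 CPM. Ikzf3 was highest in B cells, at 193 CPM (157 to 235) in the IRF4 arm against 188 CPM (167 to 211) in the control arm, above every other gate. It was between 57.4 and 119 CPM in the endogenous T and NK gates of the IRF4 arm and between 62.7 and 108 CPM in those of the control arm, and under 5 CPM in every myeloid and dendritic gate. Transferred cells of the control arm, at 42.1 CPM, were below all of those T and NK gates. Ikzf4 was high in 2 gates only. Mature dendritic cells had 68.1 CPM (53.2 to 85.9) in the IRF4 arm against 57.2 CPM (45.2 to 71.5) in the control arm, and regulatory T cells had 55.0 and 50.5 CPM, with overlapping intervals within each arm. All other endogenous gates were under 10 CPM, and NK and B cells had 0 Ikzf4 UMIs in both arms.

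Between arms, the 4 genes were also set side by side in the other endogenous gates with at least 100 cells in each library. Ikzf2 in CD4 T cells was at 198 CPM in the IRF4 arm against 118 CPM in the control arm, a ratio of 1.67 (1.38 to 2.03) on 310 and 163 UMIs. It was the 1 call among 3 measured genes in that gate, where 10.6% of genes were called higher, 8.73% lower and 19.3% in all. Regulatory T cell genes went with it in that gate, with 7 of 13 measured called higher and 2 lower and a median log2 ratio of 0.61 beside 0.09 over all genes, although the gate asked for no Foxp3 UMI. RNA of other cells differed there too. The 9 markers of conventional dendritic cells, all with UMIs in both arms, summed to 61.9 CPM in the IRF4 arm against 142.99 CPM in the control arm. The plasmacytoid markers Siglech, Ccr9 and Cox6a2, without Bst2 and Runx2, summed to 110 and 18.9 CPM, the myeloid markers, 7 of 8 present with Ms4a7 at 0 in both arms, to 94.4 and 170 CPM and the erythroid ones to 0 and 69.7 CPM. Their part in the Ikzf2 ratio was not tested. In the double-negative T cells without Trdc the Ikzf2 ratio was 1.199 (1.112 to 1.294), and 0 of 3 measured genes were called where 10.8% of genes were. In NK cells it was 0.72 (0.586 to 0.887), with 0 of 3 called where 5.29% were. In monocytes or macrophages Ikzf1 was at 102 and 74.4 CPM (ratio 1.38, 1.28 to 1.48), the 1 measured gene of the family there, with 0 called where 10.7% were. T cells with myeloid RNA had 192 and 152 CPM of Ikzf2 (ratio 1.26, 1.17 to 1.35), and 0 of 3 measured genes were called where 9.05% were. Ikzf3 in B cells had a ratio of 1.03 (0.811 to 1.29), and 0 of 2 measured genes were called where 27.3% were.

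The share of cells with a UMI gave the same order as the summed level in transferred cells. Each cell was thinned to 2000 UMIs, to remove the effect of depth. After thinning, 6.51% (4.43 to 9.16) of 461 CD8-gated cells of the IRF4 arm and 29.7% (27.6 to 31.8) of 1925 of the control arm held an Ikzf2 UMI. Without thinning the shares were 29.7% and 60.2%. Endogenous CD8-gated cells held one in 20.9% (19.1 to 22.8) of the IRF4 arm and 19.1% (16.1 to 22.3) of the control arm, with overlapping intervals. B cells, which should lack the gene, gave 0.909% (at most 4.96) and 0.248% (at most 1.37) as a background within the endogenous libraries, at unthinned median depths of 3347 and 3617 UMIs. Background was not measured in the transferred libraries, where no gate of another cell type reached 50 cells. Ikzf1 UMIs were in 29.9% and 30.1% of thinned transferred cells, and Ikzf3 UMIs in 15.2% (12.0 to 18.8) and 10.3% (9.01 to 11.8).

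Ikzf2 was spread unevenly among cells. At 5000 UMIs per cell, 85.8% of transferred cells of the IRF4 arm and 54.7% of those of the control arm had 0 Ikzf2 UMIs. At the other end, 6 or more UMIs were found in 2 of 450 cells (0.444%, 0.0539 to 1.596) in the IRF4 arm against 124 of 1813 (6.84%, 5.72 to 8.10) in the control arm. The tail was present among endogenous CD8-gated cells too, with 2.55% in the IRF4 arm against 3.69% in the control arm, and it made up most regulatory T cells of the IRF4 arm (66.7%) and 46.4% of those of the control arm. Before thinning, 50% of all Ikzf2 UMIs in transferred cells came from 4.56% of cells in the IRF4 arm against 9.39% in the control arm, while the same share of Ikzf1 UMIs took 17.1% and 15.5% of cells. Ikzf3 reached 6 or more UMIs in 0 transferred cells of either arm, which allows a share of up to 0.816% in the IRF4 arm against 0.203% in the control arm by the exact interval.

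**Figure D2:**
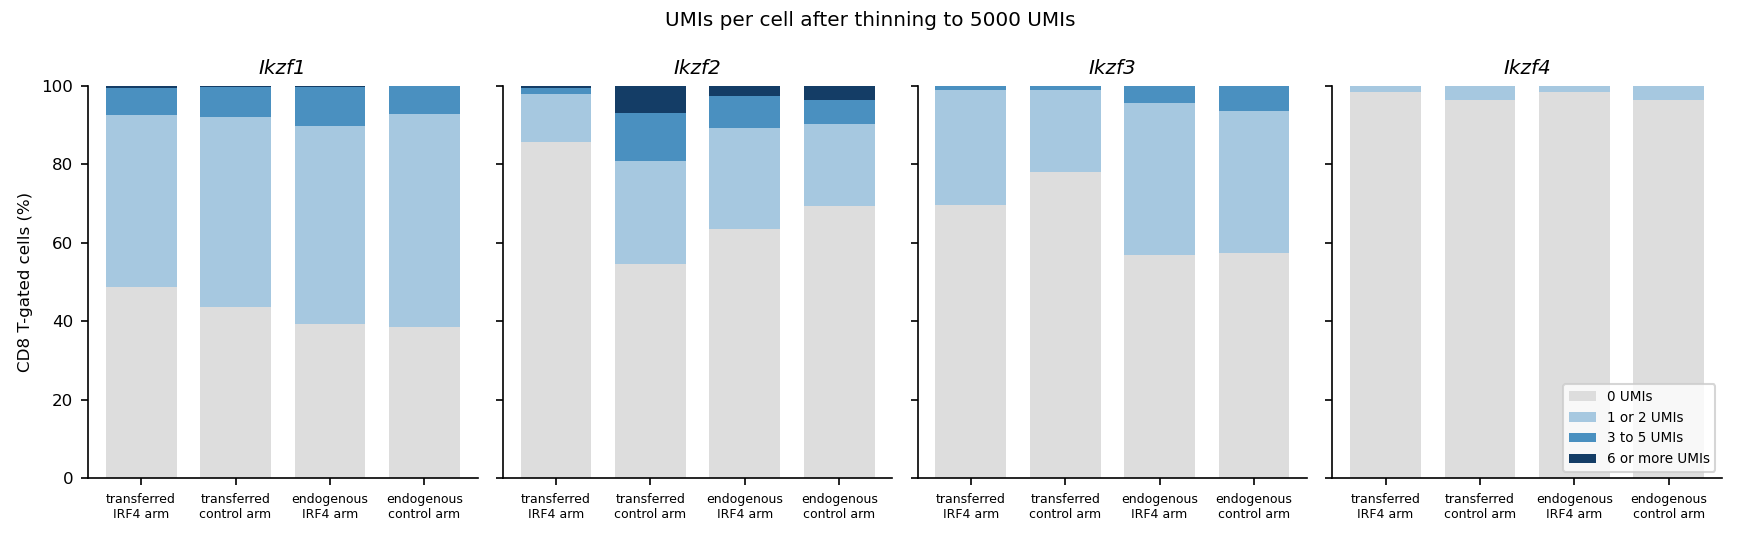
Shares of CD8 T-gated cells with 0, 1 or 2, 3 to 5, and 6 or more UMIs of each gene after every cell was thinned to 5000 UMIs, in the 4 libraries. The darkest band of Ikzf2, 6 or more UMIs, holds 0.444% of transferred cells in the IRF4 arm against 6.84% in the control arm, and for Ikzf1 that band holds 0.444% and 0.276%.

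The Ikzf2 difference was followed through states of the transferred cells, each defined by the UMIs of genes outside the family. In 20 overlapping splits of the CD8-gated cells, the ratio of the IRF4 over the control arm ran from 0.138 to 0.841, with an interval below 1 in 19 of the 20. Cells with a UMI of Tcf7, a factor of stem-like T cells, and none of Gzmb, a cytotoxic granule protease, had 75.9 CPM of Ikzf2 in the IRF4 arm against 342 CPM in the control arm (ratio 0.222, 0.187 to 0.262). Cells with a Gzmb UMI and no Tcf7 UMI had 52.2 and 109 CPM (ratio 0.479, 0.400 to 0.571). The control arm varied more between these states than the IRF4 arm, which was below it in both. Cells with UMIs of at least 2 of 5 cycle genes had 38.8 and 243 CPM (ratio 0.159), and cells with none of them had 55.8 and 249 CPM (ratio 0.224). Cells with a UMI of a Ly49 gene, 22 in the IRF4 arm against 199 in the control arm, had 124 and 318 CPM (ratio 0.39, 0.319 to 0.472). In endogenous CD8-gated cells a Ly49 UMI went with 340 CPM of Ikzf2 in the IRF4 arm and with 399 CPM in the control arm, and cells with no Ly49 UMI had 126 and 153 CPM.

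The exception was the cells without a Trbv14 UMI, in which the transgenic receptor had not been seen. These 36 cells of the IRF4 arm had 175 CPM of Ikzf2 (138 to 218), and the 209 of the control arm had 208 CPM (189 to 228), a ratio of 0.841 (0.653 to 1.071) whose interval holds 1. In cells with a Trbv14 UMI the levels were 40.5 and 264 CPM, a ratio of 0.153 (0.140 to 0.168). Cells without a Trbv14 UMI were shallower, with median depths of 8668.5 and 7256 UMIs against 16841 and 20714. Among all transferred CD8-gated cells under 10000 UMIs, Ikzf2 was at 27.0 and 179 CPM (ratio 0.151, 0.098 to 0.224). The part of depth in the exception was not tested. Ikzf3 in the cells without a Trbv14 UMI was at 137 and 73.4 CPM (ratio 1.87, 1.37 to 2.52), both above the levels of 57.7 and 40.9 CPM in cells with one. Over the same 20 splits Ikzf3 had a ratio with an interval above 1 in 17 and below 1 in 0, and Ikzf1 one below 1 in 3 and above 1 in 2. In endogenous cells the Ikzf2 ratio had no single direction, with the interval below 1 in 11 of 19 splits and above 1 in 6.

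**Figure D3:**
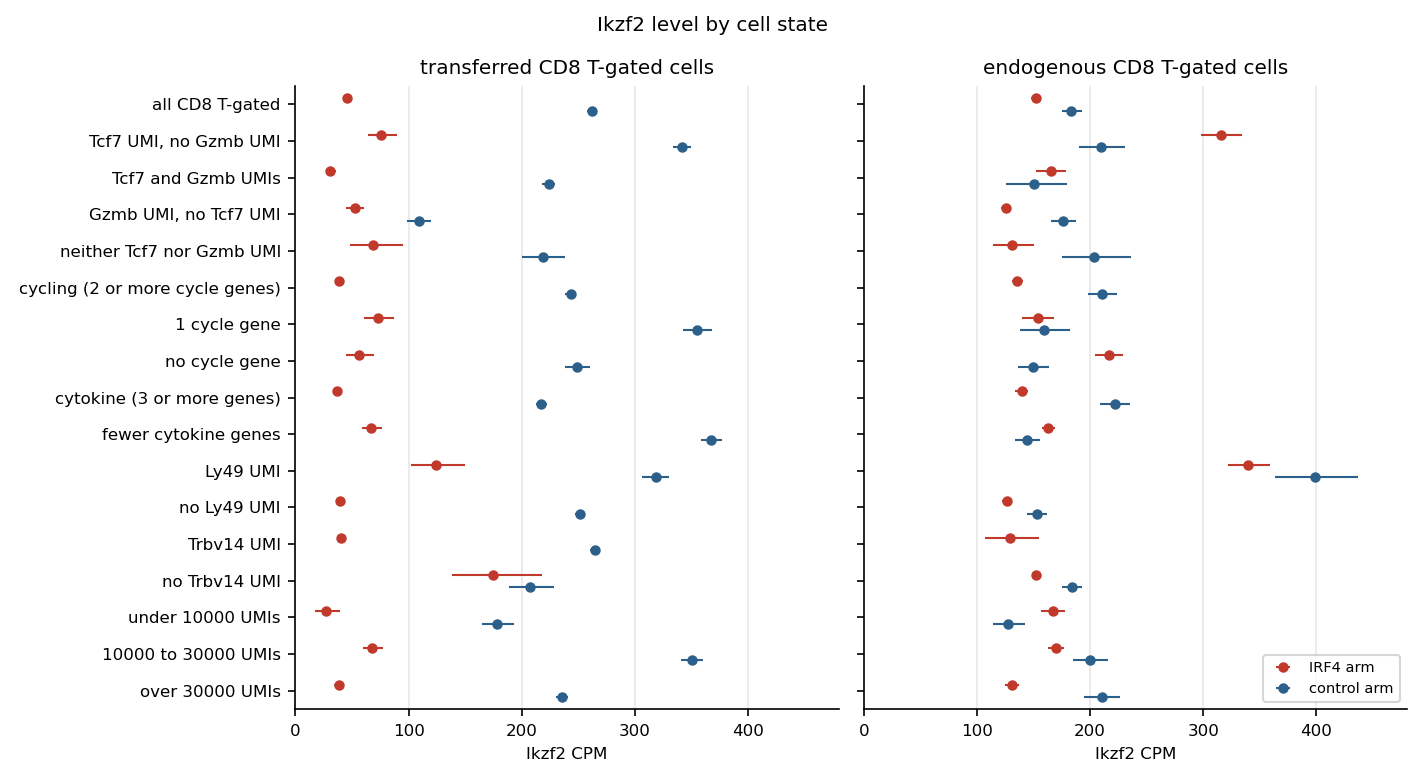
Ikzf2 level (CPM) in states of transferred (left) and endogenous (right) CD8 T-gated cells, IRF4 arm in red and control arm in blue, with exact Poisson intervals at 95%; states of under 20 cells in a library are not drawn. In transferred cells the IRF4 arm is at 26.99 to 175 CPM and the control arm at 109 to 368 CPM, and the intervals overlap only where no Trbv14 UMI was found.

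Transferred control cells with much Ikzf2 were compared with those without it to see which other genes went with it. At least 5 Ikzf2 UMIs per 10000 were found in 344 of 1927 CD8-gated control cells (17.9%, 16.2 to 19.6), which held 53.6% of the Ikzf2 UMIs, and 766 cells had none. In the IRF4 arm 6 of 461 cells (1.30%, 0.479 to 2.81) reached that level. Control cells with much Ikzf2 (Ikzf2-high) had a median depth of 18435 UMIs and those with none (Ikzf2-zero) 9793, and 36.9% and 22.1% of them were cycling. Ikzf4 went with Ikzf2, at 20.5 CPM in Ikzf2-high and 3.50 CPM in Ikzf2-zero cells (ratio 5.85, 4.20 to 8.31). The ratio was also above 1 among endogenous CD8-gated cells, at 5.07 (2.54 to 10.1) in the IRF4 arm against 5.50 (2.64 to 11.8) in the control arm. Ikzf1 was at 165 and 171 CPM (ratio 0.963, 0.900 to 1.031), with an interval that holds 1, and Ikzf3 was lower, at 35.4 and 55.9 CPM (ratio 0.634, 0.552 to 0.726). Outside the family and among genes whose larger level was at least 50 CPM, those furthest up were Igsf3 (10.2), H2-Ab1 (8.09), H2-Aa (7.55), H2-Eb1 (7.37) and Cd74 (5.89). The last 4 encode the chains of MHC class II and the invariant chain that escorts them. Furthest down were Gzma (0.0776) and Gzmb (0.168), which encode granule proteases, and the chemokine genes Ccl4 (0.131), Ccl3 (0.136) and Ccl9 (0.16). Tox, a factor of chronically stimulated T cells, was at 149 and 44.5 CPM (ratio 3.35, 3.03 to 3.70), Tcf7 at 234 and 131 CPM (ratio 1.78) and Irf4 at 12.2 and 33.4 CPM (ratio 0.366, 0.293 to 0.454). The B cell markers Cd79a, Ms4a1 and Pax5 were at 0 UMIs in both sets of cells, and Cd79b was at 3.53 and 3.34 CPM. Of 9 conventional dendritic markers, 7 had UMIs in the Ikzf2-high cells, at a summed 18.0 CPM, with Clec9a and Flt3 at 0, and 6 in the Ikzf2-zero cells, at 6.45 CPM, with Clec9a, Cd209a and Mgl2 at 0. The 5 mature dendritic markers, which include Ccr7, also a T cell gene, summed to 385 CPM with Ccl22 at 0 in the Ikzf2-high cells and to 131 CPM in the Ikzf2-zero cells. Myeloid markers summed to 51.5 CPM with 8 of 8 present in Ikzf2-high cells and to 35.4 CPM with 8 of 8 present in Ikzf2-zero cells. The part of these transcripts was not tested.

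The MHC class II genes went the other way among endogenous CD8-gated cells, with Cd74 at 77.9 CPM in Ikzf2-high and 312 CPM in Ikzf2-zero cells of the IRF4 arm and at 121 and 1670 CPM in the control arm. The conventional dendritic markers there summed to 21.9 CPM (5 of 9 present) and 34.2 CPM (9 of 9) in Ikzf2-high and Ikzf2-zero cells of the IRF4 arm and to 18.2 CPM (5 of 9) and 120 CPM (8 of 9) in those of the control arm. Ikzf2-high cells of the endogenous control arm, 59 in all, also held 7546 CPM of erythroid RNA, against 74.3 CPM in the Ikzf2-zero cells. Gzma was lower in Ikzf2-high cells of every library compared, at 68.8 and 246 CPM in the endogenous IRF4 arm and 26.8 and 177 CPM in the endogenous control arm. Gzmb, Ccl3, Ccl4 and Ccl9 were lower in Ikzf2-high cells of the endogenous IRF4 arm and higher in those of the endogenous control arm, where their ratios were 1.22, 4.39, 1.93 and 1.98. Tcf7 was higher in Ikzf2-high cells of the endogenous IRF4 arm (ratio 2.65, 2.36 to 2.98) and lower in those of the endogenous control arm (ratio 0.762, 0.617 to 0.934). Irf4 had ratios of 0.641 (0.309 to 1.204) and 1.61 (0.775 to 3.18), with intervals that hold 1. Tox had smaller ratios than in the transferred control cells, 1.17 (1.04 to 1.31) in the endogenous IRF4 arm and 1.22 (0.997 to 1.48) in the endogenous control arm. Igsf3 was low there, at 12.8 and 0.21 CPM in the IRF4 arm (ratio 60.8, 15.1 to 531). In the control arm it was at 5.36 and 1.39 CPM (ratio 3.85, 0.886 to 16.7).

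**Figure D4:**
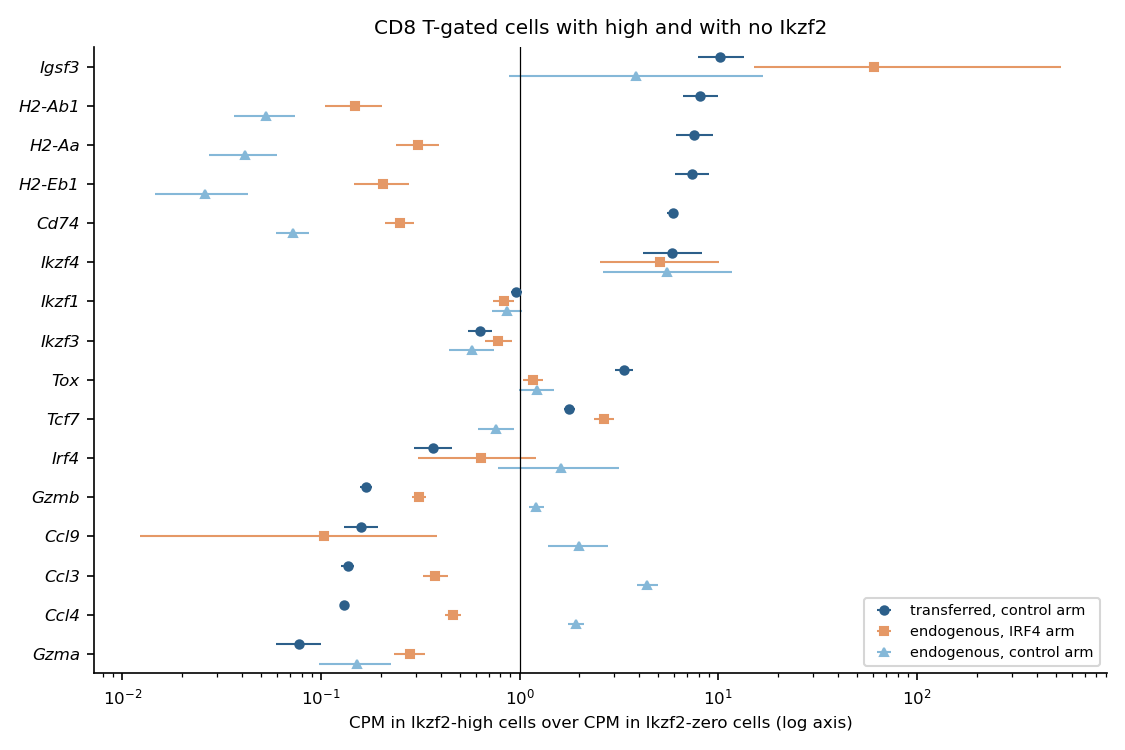
Ratio of CPM in CD8 T-gated cells with at least 5 Ikzf2 UMIs per 10000 over CPM in cells with 0, on a log axis with counting intervals at 95%, for transferred cells of the control arm and endogenous cells of both arms; the transferred IRF4 arm, with 6 high cells, is left out. Ikzf4 lies right of 1 in all 3 libraries, at 5.85, 5.07 and 5.50, whereas the MHC class II genes lie right of 1 in the transferred control cells and left of 1 in both endogenous libraries.

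Genes whose level followed each family gene most closely were found over 18 sums of gate and library with at least 100 cells, by Pearson's r of log2 CPM with 1 added, among 9400 genes. These sums share libraries and lineages, so r is a description. Ikzf1 went most closely with Ms4a4b (r = 0.91), Hid1, Tcf7, Drosha and Apol7e (r = 0.89). For Ikzf2 the nearest were Sytl1 (r = 0.93), Lysmd2, Camk4, Acsbg1 and Podnl1 (r = 0.91), and for Ikzf3 Gimap6 (r = 0.97), Gimap7, Zfp507, Ets1 and Otud7b (r = 0.96). Ikzf4 went with Tnfrsf4 (r = 0.94), a receptor of activated and regulatory T cells, with Odc1, Nol10 and Sdcbp2, and with Ctla4 (r = 0.92), an inhibitory receptor. The 100-cell rule left out mature dendritic cells of both arms (62 and 83 cells) and regulatory T cells of the control arm (86 cells). Of the gates high in Ikzf4, only regulatory T cells of the IRF4 arm (55.0 CPM) entered. Every r of Ikzf4, also that with Ikzf2, therefore leans on that sum. Within the family r ran from 0.21 for Ikzf1 with Ikzf4 to 0.66 for Ikzf2 with Ikzf4.

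Partners of Ikaros proteins were set side by side as well. Of 17 measured NuRD and corepressor genes in transferred CD8-gated cells, 0 were called higher and 0 lower where 6.45% of all measured genes were called, a count near that share, with a median log2 ratio of 0.02 beside 0.01 over all measured genes. Chd4, the ATPase of the complex, was at 245 CPM in the IRF4 arm against 263 CPM in the control arm, and Hdac1, its deacetylase, at 163 and 156 CPM. The 5 cereblon ligase genes had 0 calls as well and a median of -0.01, with Crbn, the drug receptor itself, at 50.8 and 58.5 CPM. In endogenous CD8-gated cells both lists also had 0 calls, where 7.84% of all genes were called, with medians of 0.11 for NuRD and 0.05 for the cereblon genes beside 0.02 over all measured genes.

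Genes reported as regulated by Ikaros proteins in lymphocytes were called lower in 4 of 13 measured cases in transferred cells and higher in 0, beside 2.76% of all genes called lower. Their median log2 ratio was -0.36. Il2, a cytokine gene that Ikaros is known to repress in T cells, was at 5.62 CPM in the IRF4 arm against 19.9 CPM in the control arm (ratio 0.282, 0.218 to 0.36). Bcl2, a survival factor, was at 75.3 and 135 CPM (ratio 0.559), Ifng, the gene of interferon-gamma, at 217 and 353 CPM (ratio 0.616) and Myc, a growth regulator, at 63.0 and 95.2 CPM (ratio 0.662). In endogenous cells 2 of 13 were called lower, Il7r and Bcl2, beside 4.91% of all genes, with a median of -0.27, and Il2 was at 11.0 and 7.63 CPM (ratio 1.44, 1.11 to 1.88). Il7r, Bcl2 and Foxo1 are also among the stem and memory T cell genes described next. Calls of these genes therefore count in both lists, and the lists are not separate results.

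Of 15 stem and memory T cell genes, 7 were called lower and 0 higher in transferred cells of the IRF4 arm, where 2.76% of all genes were called lower and 3.69% higher. The median log2 ratio was -0.36 beside 0.01 over all genes. The furthest were Lef1 (26.4 and 64.7 CPM, ratio 0.408), Tcf7 (85.6 and 167 CPM, ratio 0.512), Id3 (50.8 and 97.2 CPM, ratio 0.523) and Myb (37.9 and 71.0 CPM, ratio 0.534). In endogenous CD8-gated cells 8 of the 15 were called lower and 1 higher (Myb, 37.3 and 17.1 CPM), where 4.91% of all genes were called lower and 2.93% higher, with a median of -0.65 beside 0.02. Of the 20 regulatory T cell genes 10 were measured in transferred cells, with a median of 0.13, and 1 was called in each direction where 3.69% of all genes were called higher and 2.76% lower. These were Ctla4, higher in the IRF4 arm (125 and 56.8 CPM, ratio 2.2, 2.07 to 2.34) and Nt5e, the gene of CD73, lower (9.63 and 17.7 CPM, ratio 0.545). In endogenous cells 2 of 12 were called higher and 6 lower (median -0.49), where 2.93% of all genes were called higher and 4.91% lower. Ctla4 was at 81.4 CPM in the IRF4 arm against 42.1 CPM in the control arm, and Izumo1r, the other called higher, at 17.8 and 8.27 CPM. Lower were Nt5e (8.34 and 17.8 CPM, ratio 0.467) and Itgae (5.84 and 12.5 CPM, ratio 0.469), furthest down, then Capg, Il2ra, Tnfrsf4 and Nrp1. Of the Ly49 and innate-like genes 7 of 16 were measured in transferred cells and 2 were called lower where 2.76% of all genes were (median -0.32), Xcl1, a chemokine gene (1132 and 2184 CPM, ratio 0.518), and Fcer1g, an adaptor of activating receptors (21.0 and 36.6 CPM, ratio 0.575). In endogenous cells 6 of 9 were called lower and 0 higher, where 4.91% and 2.93% of all genes were (median -0.84), with Tyrobp, another such adaptor, at 41.8 and 131 CPM (ratio 0.318). Tyrobp and Fcer1g are also expressed by myeloid cells but are not among the 8 myeloid markers of the gate (Lyz2, Csf1r, Fcgr1, C1qa, C1qb, Adgre1, Cd68 and Ms4a7), which summed to 64.8 and 118 CPM in these cells. Conventional dendritic markers summed to 41.8 and 118 CPM there, and the part of such RNA in the endogenous calls was not tested. These lists were drawn up with results of these libraries known, so their counts describe them and do not test them.

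**Figure D5:**
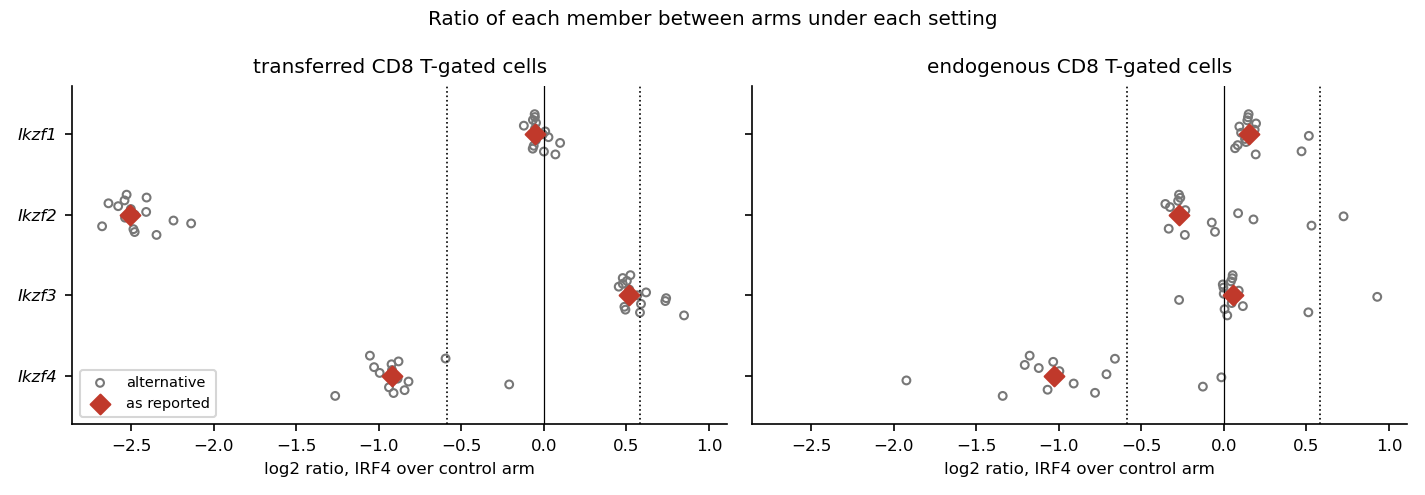
Log2 ratio of each gene between the IRF4 and control arms in transferred (left) and endogenous (right) CD8 T-gated cells, as reported (diamonds) and under every alternative processing (open circles), with dotted lines at a 1.5-fold difference. Ikzf2 in transferred cells stays between -2.68 and -2.14 in 15 alternatives, whereas in endogenous cells it runs from -0.35 to 0.72.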

How the data were processed

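Single-cell 3' RNA counts of 4 libraries, with 1 library in each group, were analysed. Groups were taken from the labels. The authors deposited UMI counts, which are raw whole numbers for each barcode and gene. The submitters' processing notes name Cell Ranger 3.0.2, STAR 2.6 and the mm10 build, and the sources used here do not name the annotation. The labels' protocols speak of a single-nucleus suspension although cells were sorted, and this was not settled. Barcodes with at least 1000 UMIs, 500 genes and at most 10% mitochondrial UMIs were kept, 15132 of 17711.

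Cells were gated on marker UMIs, with thresholds set after the marker distributions were seen. T cells needed UMIs of at least 2 Cd3 genes, and CD8 T cells also 2 or more Cd8a or Cd8b1 UMIs and none of Cd4 or Foxp3. T cells with at least 5 myeloid UMIs per 10000 were set apart, 73 transferred cells in the IRF4 arm against 408 in the control arm and 197 against 424 endogenous ones. Ungated cells made up 1.75% and 3.66% of transferred and 14.3% and 15.0% of endogenous kept cells of the IRF4 and control arms. No doublet caller was run. Cells short of 2 Cd3 genes that met several of the NK, B cell, dendritic, neutrophil and mast cell rules were left ungated. T cells were screened only for myeloid, NK and B cell markers, so those with dendritic or neutrophil markers could stay in the CD8 and CD4 gates. An alternative left out the 6% of all kept cells of each library with the most UMIs. It left 437 of 461 and 1885 of 1927 transferred CD8-gated cells in the IRF4 and control arms, and 1662 of 1895 and 595 of 640 endogenous ones.

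UMIs were summed per gate and library and scaled to CPM. Levels have exact Poisson, ratios exact conditional binomial and shares Clopper-Pearson intervals at 95%, for counting error only, and no test was made. Printed ratios are ratios of CPM; log2 ratios add a pseudocount of 1 CPM. The ratio step was tested on simulated data. Genes named are the family, Ikzf5, the 5 nearest genes of each by r, up to 4 called members of each list furthest from a ratio of 1, and the 5 highest and 5 lowest in the comparison of Ikzf2-high with Ikzf2-zero cells, with Chd4, Hdac1, Crbn, Tox, Tcf7, Irf4 and gate markers added for context. The family members and gene lists were chosen with earlier results of these data known. Sequences came from GENCODE vM21 transcripts. Alternatives were other pseudocounts, filters, scalings, gates and cell subsets. Tools were Python 3.11.15, numpy 2.4.6, scipy 1.17.1, pandas 2.3.3 and matplotlib 3.10.9.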

Additional observations from a re-analysis of the deposited data

Results flagged for a closer look

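Ikzf2 took opposite directions in several pairs of comparisons, with both counting intervals on their own side of 1. The difference between the comparisons was not tested, since each group is 1 library. The ratio of transferred over endogenous CD8 T cells was 0.299 in the IRF4 arm against 1.43 in the control arm. Between arms, the ratio was 1.67 in endogenous CD4 T cells and 0.828 in endogenous CD8 T cells. Set against the same endogenous CD8 ratio of 0.828, it was 1.199 in double-negative T cells without Trdc, 1.26 in T cells with myeloid RNA and 1.70 in monocytes or macrophages, the last on 79 UMIs in the IRF4 arm against 105 in the control arm and at 6.28 and 3.68 CPM. NK cells, at 0.72 (0.586 to 0.887), stood on the same side as CD8 T cells. The endogenous CD8 ratio itself changed sides of 1 with the choice of cells, as the next section gives.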

How the results depend on the processing

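Each group is 1 library, so counting error is the only spread known, and a value within it does not show that the arms are alike. No paired analysis was possible because each group has a single library. Log2 ratios of the IRF4 over the control arm are given. In transferred cells Ikzf2 stayed past 1.5-fold in all 15 alternatives (-2.68 to -2.14): it was -2.64 under a stricter barcode filter, -2.24 without the 6% of cells with the most UMIs, -2.14 without cells with a cycle gene UMI, and, in alternatives chosen after seeing the data, -2.68 in cells with a Trbv14 UMI and -2.35 in cells of 10000 to 30000 UMIs. Its share of cells with a UMI had -2.19 and, without thinning, -1.02. Ikzf3 passed 1.5-fold in 5 of 15, with 0.74 under a stricter gate, 0.74 without the 6% of cells with the most UMIs and 0.85 in cells of 10000 to 30000 UMIs. Ikzf1 moved from -0.06 to 0.027 under the stricter gate, 0.098 without cycle gene cells and 0.069 in cells of 10000 to 30000 UMIs. Ikzf4 was -0.21 without cycle gene cells, on few UMIs.

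In endogenous cells Ikzf2 was -0.35 under the stricter filter, -0.074 without the 6% of cells with the most UMIs and -0.054 with T cells with myeloid RNA added (chosen after seeing the data). It turned to 0.086 with every cell weighted equally, 0.18 under the stricter gate, 0.53 without cycle gene cells and 0.72 with no gate. With no gate Ikzf1 was 0.51, Ikzf3 0.93 and Ikzf4 -0.016, where the cell classes differ between the arms. The stricter gate gave -0.27 for Ikzf3 and -1.92 for Ikzf4 (5 and 9 UMIs), and leaving out cycle gene cells -0.13 for Ikzf4. T cells with myeloid RNA added gave 0.47 for Ikzf1 and 0.51 for Ikzf3, and cells without a haemoglobin UMI, also chosen later, 0.067 for Ikzf1. The cause of these moves was not tested. No value past 1.5-fold as reported changed its sign, and the median of all genes stayed within -0.06 and 0.05.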
